A study of Mus musculus with 24 samples.

Results

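Livers of mice whose hepatocytes had lost Jnk1 were examined after 28 d of bile duct ligation (BDL), set against sham-operated control livers of the same time. The comparison took the 3 arrays titled as JNK1Δhepa after ligation for 28 d and the 3 titled as control sham at 28 d, 6 of the 24 arrays of the study. JNK1Δhepa animals carried JNK1f/f alleles on a C57BL/6 background together with a Cre transgene under a postnatally active albumin promoter, and their common bile duct was ligated. Control animals were JNK1f/f on the same background, had their abdomen opened and closed again, and served as the sham group. A further set of 3 control (JNK1f/f) livers ligated for 28 d is used where a value of the ligated mutant is set against ligation with Jnk1 present. All animals were male and 12 weeks old. No sham-operated JNK1Δhepa livers are part of the study, so ligation and genotype cannot be told apart in the difference from sham, and the Cre driver leaves Jnk1 in bile duct cells, stellate cells, endothelium and immune cells.

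Bile duct ligation blocks the outflow of bile. Retained bile acids reach hepatocytes and blood, bile ducts proliferate, macrophages are recruited, and stellate cells become collagen-producing myofibroblasts. Hepatocytes are known to respond by lowering bile acid uptake and synthesis and by raising pumps that export bile acids to blood. JNK1, encoded by Mapk8, belongs to the stress-responsive MAP kinases and modifies JUN, a component of the AP-1 transcription factor, and in liver it has been tied to cell death, inflammation and scarring.

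Mapk8 was read first. Its log2 intensity was 7.67, 6.90 and 6.97 in the JNK1Δhepa ligated livers (replicates 1, 2 and 3), 7.67, 7.41 and 7.44 in the control ligated livers, and 7.52, 7.52 and 7.54 in the sham livers. The array labelled JNK1Δhepa 28 d replicate 1 thus read at the control level, against its label, while the other two lay below every control array. The log2 difference of the mutant from sham was -0.35 (SE 0.22, n = 3 per group, limma adjusted p = 0.292) and -0.59 without that array. Whether the Mapk8 probes lie in the deleted part of the gene is not given in the sources used here, and whole liver also holds cells in which the albumin promoter is silent. Counts of called genes are therefore given with and without the array labelled JNK1Δhepa 28 d replicate 1. Mapk9, which encodes JNK2, read 9.17, 9.24 and 9.07 in the mutant and 9.12, 8.96 and 9.05 in sham liver (adjusted p = 0.333), and Mapk10 (JNK3), a gene of brain and heart, read 3.19, 2.96 and 3.0 in the mutant and 3.19, 3.28 and 3.22 in sham liver, at the low end of the scale. Albumin (Alb), the defining hepatocyte product, read 13.26 to 13.33 in the mutant and 13.34 to 13.40 in sham liver.

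**Figure D1:**
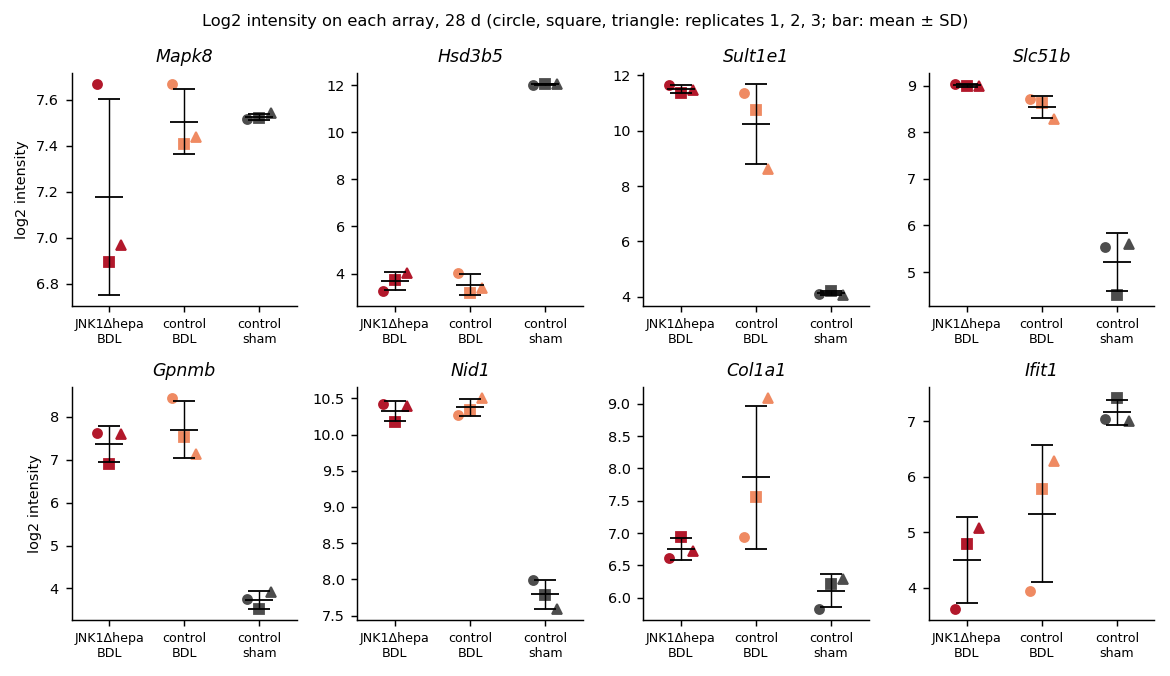
Log2 intensity of 8 genes on each array at 28 d, with JNK1Δhepa BDL on the left, control BDL in the middle and control sham on the right; symbols mark replicates 1, 2 and 3, and bars give the mean ± SD (n = 3). Mapk8 on the array labelled JNK1Δhepa replicate 1 lies at 7.67. Hsd3b5, Sult1e1, Slc51b, Gpnmb, Nid1, Col1a1 and Ifit1 separate all 3 mutant arrays from all 3 sham arrays, though Col1a1 did not reach an adjusted p under 0.05 in limma.

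The first question was how much of the liver transcriptome differed from sham after 28 d of ligation in mice without hepatocyte Jnk1. A gene was called at a Benjamini-Hochberg adjusted p under 0.05 in limma, fitted over the 18820 genes and all arrays of the study. In JNK1Δhepa ligated liver 4033 genes differed from sham, 21.4% of those tested: 2080 rose (11.1%) and 1953 fell (10.4%), and 466 of the rises and 404 of the falls reached at least 2-fold. The median log2 difference over all genes was -0.02. Without the array labelled JNK1Δhepa replicate 1, 1413 rose and 1332 fell. Centring each array on its own median shifted the split to 1345 that rose and 2375 that fell. P-values describe the spread between these samples, since labels identify animals only by number.

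The deepest falls were in genes that adult male hepatocytes normally express at high levels. Hsd3b5, a hydroxysteroid dehydrogenase of male mouse liver, had log2 intensities of 3.28, 3.72 and 4.03 in the mutant ligated livers, against 12.00, 12.04 and 12.05 in sham liver. All mutant arrays lay near the lower end of the scale and all sham arrays near the upper end, a log2 difference of -8.36 (SE 0.86, adjusted p = 1.86e-06), or 327-fold. Elovl3, a fatty acid elongase, had 4.89, 5.67 and 5.94 in the mutant and 12.19, 11.95 and 12.41 in sham liver (103-fold lower, adjusted p = 1.21e-06). Slco1a1, a sinusoidal carrier that takes up organic anions, had 5.45, 4.97 and 5.41 against 11.48, 11.39 and 11.25 in sham liver (68.5-fold lower). In these 3 genes the mutant and sham arrays were far apart. Car3, a carbonic anhydrase abundant in male liver, had 5.41, 7.02 and 7.44 against 13.08, 12.97 and 12.97. Fabp1, the liver fatty acid binding protein, had 6.40, 8.02 and 8.67 against 12.63, 12.52 and 12.69. In Car3 and Fabp1 the array labelled replicate 1 was the lowest of the mutant arrays. The remaining large falls were in Serpina4-ps1 (a pseudogene of the serpin family, 175-fold), the major urinary proteins Mup3 (75.4-fold), Mup6 (52.6-fold) and Mup21 (35.0-fold), the sulfotransferase Sult2a8 (47.3-fold), the acyltransferase-like Keg1 (28.2-fold) and the carboxylesterase Ces3a (27.1-fold). Major urinary proteins, sulfotransferases and carboxylesterases belong to families of near-identical copies, so signal may be shared between members. Values this low on the log2 scale sit close to background, where a fold depends on how the authors' normalization treated dim probes.

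The largest rise was in Sult1e1, the estrogen sulfotransferase. It had 11.67, 11.36 and 11.46 in the mutant ligated livers and 4.11, 4.23 and 4.09 in sham liver, a log2 difference of 7.36 (SE 0.68, adjusted p = 5.94e-07), or 164-fold. Slc51b, the beta subunit of the basolateral bile acid exporter OST, had 9.04, 9.00 and 8.99 against 5.53, 4.50 and 5.61 in sham liver (13.9-fold, adjusted p = 0.000661). The 3 mutant values of Slc51b lay close together, while sham replicate 2 lay well below the other sham values. Nqo1, a quinone reductase under control of NRF2, had 10.12, 9.91 and 9.07 against 5.59, 5.27 and 5.74 (18.0-fold). Bmper, a secreted regulator of BMP signalling, had 9.57, 8.57 and 8.72 against 4.11, 4.11 and 4.09 (28.8-fold). Other large rises were in the trehalose-cleaving enzyme Treh (16.9-fold), the monocarboxylate carrier family member Slc16a5 (14.8-fold), the elongase Elovl7 (14.4-fold), the acute phase protein Orm3 (14.4-fold), the protease inhibitor Timp4 (13.9-fold), the organic anion carrier Slc22a27 (13.1-fold) and the lysophospholipid carrier Mfsd2a (13.1-fold). Cyp2b9, a P450 of female mouse liver, rose 15.2-fold, but its sham values of 7.61, 4.14 and 4.88 varied widely and the call was lost without JNK1Δhepa replicate 3, sham replicate 2 or sham replicate 3. Sham values near 4, as in Sult1e1, Bmper, Elovl7, Treh and Slc22a27, lie close to background, so these folds depend on the treatment of dim probes in the same way as those of the deepest falls. Mutant and sham arrays that do not overlap were a condition for naming all of these genes, Cyp2b9 included. For the other 23 genes with the largest changes, the call held without the array labelled JNK1Δhepa replicate 1.

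**Figure D2:**
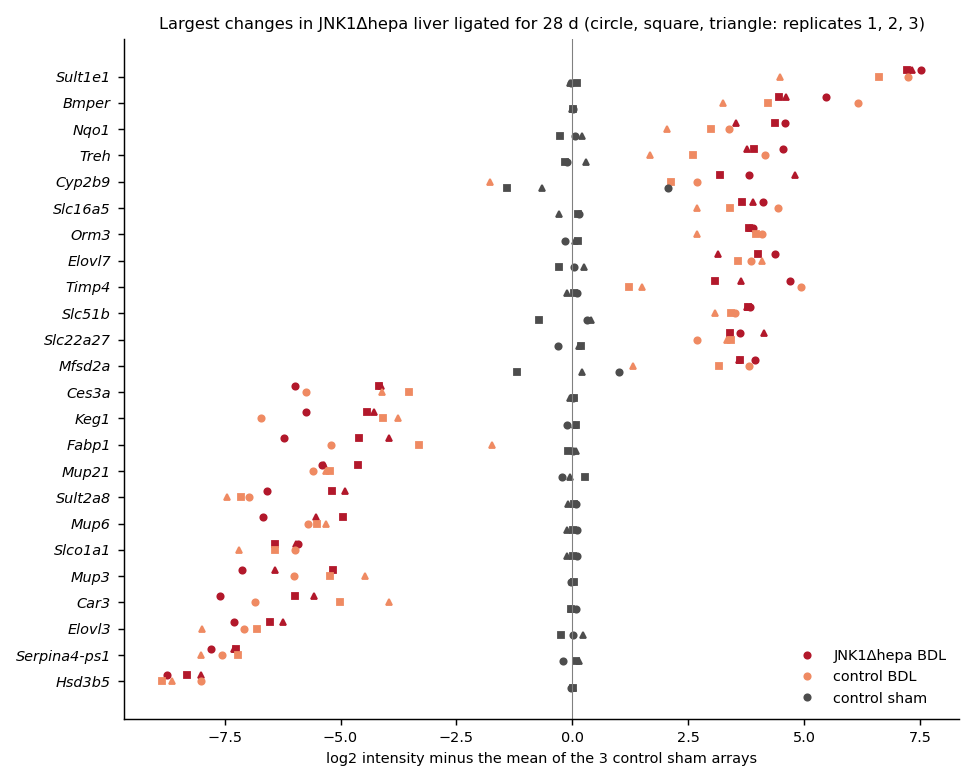
Log2 intensity minus the mean of the 3 sham arrays for the 12 largest rises and 12 largest falls, with JNK1Δhepa BDL arrays above control BDL and control sham arrays in each row; symbols mark replicates 1, 2 and 3. Hsd3b5, Serpina4-ps1 and Slco1a1 lie far below sham on every ligated array, and Cyp2b9 is the gene whose sham arrays spread most.

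The windows around the transcription start of 6 genes are shown as examples: the gene with the largest rise, the gene with the largest fall, and 4 genes described in the text whose windows hold a motif match. Matches in other windows, among them those of Sult2a8, Orm3 and Treh, are counted but not shown. Sequences are RefSeq windows of 300 bases on GRCm38.p6, 250 before and 50 after the start, written 5′ to 3′ on the strand of the gene. Windows were available for 11 of the 12 genes with the largest rise and 8 of the 12 with the largest fall. Capitals mark matches, on either strand, to an AP-1 motif (TGANTCA), a STAT motif (TTCNNNGAA) or an HNF4A motif (CAAAGTCCA). AP-1 is the factor that JUN forms, STAT5 carries growth hormone signals in liver, and HNF4A is a master regulator of hepatocyte genes. Sult1e1 (chr5:87591562-87591861, minus strand) rose most, and Hsd3b5 (chr3:98645485-98645784, minus strand) fell most. Slc51b (chr9:65422724-65423023, minus strand) holds an AP-1 match that begins at -232 and a STAT match at -65. Keg1 (chr19:12695540-12695839, plus strand) holds STAT matches at -173 and -107. Bcl6 (chr16:23981234-23981533, minus strand), a transcriptional repressor that is itself male-biased in mouse liver, holds STAT matches at -168, -122 and -88. Psmb8 (chr17:34197945-34198244, plus strand), an interferon-induced proteasome subunit, holds a STAT match at -97.
Sult1e1: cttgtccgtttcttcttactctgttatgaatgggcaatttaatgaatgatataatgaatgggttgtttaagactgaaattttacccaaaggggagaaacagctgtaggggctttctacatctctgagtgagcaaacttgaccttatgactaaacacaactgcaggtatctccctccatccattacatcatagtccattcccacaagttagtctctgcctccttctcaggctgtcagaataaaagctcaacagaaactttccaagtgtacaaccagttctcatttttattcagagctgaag
Hsd3b5: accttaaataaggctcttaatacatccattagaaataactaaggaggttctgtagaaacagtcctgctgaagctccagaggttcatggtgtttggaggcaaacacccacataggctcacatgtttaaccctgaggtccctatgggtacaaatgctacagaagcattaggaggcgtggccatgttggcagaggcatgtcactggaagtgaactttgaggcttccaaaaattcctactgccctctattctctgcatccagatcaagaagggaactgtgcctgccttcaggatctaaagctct
Slc51b: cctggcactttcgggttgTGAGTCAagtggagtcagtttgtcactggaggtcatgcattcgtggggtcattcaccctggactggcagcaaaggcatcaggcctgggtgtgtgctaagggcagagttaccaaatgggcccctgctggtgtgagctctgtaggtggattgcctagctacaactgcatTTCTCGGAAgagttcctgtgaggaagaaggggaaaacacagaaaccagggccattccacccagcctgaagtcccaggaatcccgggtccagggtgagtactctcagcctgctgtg
Keg1: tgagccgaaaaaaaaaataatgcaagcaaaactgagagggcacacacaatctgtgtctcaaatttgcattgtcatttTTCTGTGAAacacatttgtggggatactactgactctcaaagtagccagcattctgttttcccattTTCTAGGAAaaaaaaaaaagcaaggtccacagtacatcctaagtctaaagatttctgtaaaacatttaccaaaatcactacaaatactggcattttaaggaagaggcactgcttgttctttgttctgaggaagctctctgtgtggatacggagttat
Bcl6: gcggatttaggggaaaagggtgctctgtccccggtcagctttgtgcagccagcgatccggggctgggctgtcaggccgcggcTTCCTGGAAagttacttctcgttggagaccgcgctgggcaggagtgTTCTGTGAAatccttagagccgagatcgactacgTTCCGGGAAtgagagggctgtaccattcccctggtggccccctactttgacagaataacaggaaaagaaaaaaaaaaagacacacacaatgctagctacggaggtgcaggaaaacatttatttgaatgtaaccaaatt
Psmb8: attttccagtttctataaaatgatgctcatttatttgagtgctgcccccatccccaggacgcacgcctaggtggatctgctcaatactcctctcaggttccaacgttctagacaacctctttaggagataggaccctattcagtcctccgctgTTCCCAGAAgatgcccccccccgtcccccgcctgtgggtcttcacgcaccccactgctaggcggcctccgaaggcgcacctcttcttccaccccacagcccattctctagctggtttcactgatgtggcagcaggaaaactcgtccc
Over all 32851 promoter windows the AP-1 motif was present in 7.81%, the STAT motif in 8.3% and the HNF4A motif in 0.475%. Among windows of the 12 largest rises AP-1 was present in 2 of 11, and among those of the 12 largest falls in 1 of 9. STAT matches were in 3 of 13 windows, from 11 genes, of the male-biased genes that fell. These were the Bcl6 window shown, a second Bcl6 window with a match at -118, and the window of Moxd1. For the interferon genes that fell, STAT matches were in 4 of 17 windows. They were also in 3 of 18 windows of the complement and coagulation factors that fell. Over all list members, STAT matches were in 24 of 160 windows of those that fell and 11 of 142 of those that rose. AP-1 matches were in 16 and 17 of these windows, and in 0 of 7 windows of the AP-1 factors that rose. These matches describe letters in a window and are not evidence of binding.

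Bile acid handling was described first, since it is what ligation loads directly. The lists here and below were chosen with earlier results of these data known. Their counts beside the shares over all genes are description and not independent support. Of 15 measured enzymes of bile acid synthesis 8 fell and 2 rose, with a median log2 difference of -0.47. Over all genes 10.4% fell and 11.1% rose. Some genes count in more than 1 list, as the lists hold 931 entries for 898 genes. Cyp7b1 and Slco1a1, for example, are also in the male-biased list, Abcc4 is also among the NRF2 targets and Lcn2 is also among the neutrophil genes. Cyp7b1, which hydroxylates oxysterols in the alternative pathway, had 7.39, 7.92 and 7.68 in the mutant ligated livers and 10.81, 11.71 and 11.63 in sham liver (13.2-fold lower, adjusted p = 8.15e-08). Hsd3b7 and Scp2, which act on the sterol ring and side chain, fell by 1.09 (log2, SE 0.19) and 0.76 (SE 0.11). Akr1d1, the 5-beta reductase, rose by 0.77 (SE 0.17). Cyp7a1, the rate-limiting enzyme of the classical pathway, read 9.98, 11.30 and 11.44 in the mutant and 10.73, 7.89 and 10.70 in sham liver, overlapping groups with no call (adjusted p = 0.559). Cyp8b1, which sets the share of cholic acid, read 9.76, 10.20 and 9.40 against 11.29, 11.02 and 11, below sham on every array but not called (adjusted p = 0.381), and was called when the fit used the 6 compared arrays alone. Without the array labelled JNK1Δhepa replicate 1, 5 synthesis enzymes fell. The number that rose was 1 without JNK1Δhepa replicate 2, sham replicate 2 or sham replicate 3.

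Carriers that bring bile acids and organic anions into hepatocytes split in direction. The shares over all genes were 11.1% that rose and 10.4% that fell. Among 8 measured uptake transporters 5 fell and 2 rose, with a median of -1.10. Beside Slco1a1, Slc22a7, an organic anion carrier, had 4.99, 6.17 and 5.52 in the mutant against 8.36, 8.18 and 8.61 in sham liver (7.06-fold lower), and Slco1b2, the mouse counterpart of the human OATP1B carriers, had 9.35, 10.16 and 10.33 against 11.47, 11.24 and 11.12 (2.51-fold lower). Slco1a4 rose 3.92-fold, with 11.55, 11.23 and 11.38 against 9.56, 9.25 and 9.45. Slc10a1 (NTCP), the sodium-dependent bile acid importer, read 12.50, 12.52 and 12.55 against 12.75, 12.61 and 12.58 and was not called (adjusted p = 0.389). Of the 16 export pumps 6 rose and 1 fell, with a median of 0.33. Abcc4 (MRP4), which pumps bile acids back to blood, had 8.58, 8.26 and 7.46 against 5.77, 5.33 and 5.64 in sham liver (5.72-fold higher, adjusted p = 4.66e-06). Abcb1a, a multidrug pump, rose 8.32-fold and Abcc3 (MRP3) by 0.71 (log2, SE 0.11). Slc51b rose as above, while the other OST subunit Slc51a had a difference of 0.03 (adjusted p = 0.9). Abcb11 (BSEP), the canalicular bile acid pump, read 10.48, 11.10 and 11.13 against 11.68, 11.45 and 11.69 (adjusted p = 0.063), lower on every mutant array than on any sham array. Abcb11 was called as lower when the fit used the 6 compared arrays alone. Without sham replicate 2 the export pumps that fell numbered 2.

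Sex-biased expression in mouse liver is set by growth hormone through STAT5. Among the 45 lists the male-biased genes had the lowest median and the female-biased genes the highest. Because the lists were chosen with earlier results known, this ranking is a description only. Of 20 measured male-biased genes 16 fell and 0 rose, with a median of -2.25, beside 10.4% of all genes that fell. In array terms the list's median shift from the sham mean was -2.33, -1.98 and -2.41 in the mutant ligated livers, and -2.47, -2.57 and -3.12 in control ligated livers. Besides the genes above, Bcl6 had 5.74, 6.31 and 5.40 in the mutant against 8.27, 8.57 and 8.12 in sham liver (5.66-fold lower, adjusted p = 4.73e-05). Cyp4a12a, a male P450, had a difference of -1.38 and was not called (adjusted p = 0.249), except in a fit to the 6 compared arrays or with weighted arrays. Of 13 female-biased genes 7 rose and 0 fell, with a median of 1.21, beside 11.1% of all genes that rose. Fmo2, a flavin monooxygenase, rose 5.53-fold with 9.27, 9.15 and 9.03 against 6.64, 6.86 and 6.55. Cux2, a female-specific repressor in mouse liver, had 7.78, 5.99 and 7.55 against 4.88, 5.02 and 4.90 (4.53-fold higher, adjusted p = 0.00553). Among 14 genes of growth hormone signalling 7 fell and 1 rose. Ghr, the growth hormone receptor, had 10.38, 10.72 and 10.76 against 11.89, 11.90 and 11.84 (2.39-fold lower, adjusted p = 2.69e-06), Igfals, which stabilises IGF1 in blood, fell 3.5-fold and Stat5b by 0.52 (log2, SE 0.13). Igf1 itself had a difference of -0.06 (adjusted p = 0.73). The fallen genes of growth hormone signalling numbered 4 without sham replicate 3. The risen ones numbered 0 without the array labelled JNK1Δhepa replicate 1 and 2 without JNK1Δhepa replicate 2. In the male-biased list 15 fell without the array labelled JNK1Δhepa replicate 1.

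Hepatocyte transcription factors and secretory products did not move as a block. Of 14 liver transcription factors 6 fell and 2 rose, with a median of -0.31, beside 10.4% of all genes that fell and 11.1% that rose. Cebpa, Foxa1 and Onecut1, factors that maintain hepatocyte identity, fell by 0.85 (SE 0.13), 0.94 (SE 0.15) and 1.66 (SE 0.37). Hnf4a read 12.12, 11.94 and 12.01 in the mutant and 11.86, 11.91 and 11.77 in sham liver and was not called (adjusted p = 0.242). Gata6 rose by 1.01 (SE 0.15), and the number of risen factors was 1 without the array labelled JNK1Δhepa replicate 1. Among 11 bile acid and xenobiotic receptors 3 fell, led by Nr5a2 (LRH-1), which drives bile acid synthesis genes (-0.80, SE 0.10), and 1 fell without the array labelled JNK1Δhepa replicate 1. Of 22 secretory and metabolic hepatocyte markers 4 fell and 2 rose, with a median of -0.05, and Alb, Apoa1 and Ahsg were not called. Ttr, transthyretin, fell by 0.34 (SE 0.07), and Otc, a urea cycle enzyme, had 8.69, 10.33 and 10.43 against 11.63, 11.60 and 11.53 (3.42-fold lower). Without the array labelled JNK1Δhepa replicate 1 the marker counts were 2 that fell and 0 that rose. They were 2 that fell without sham replicate 1, and 1 that rose without sham replicate 2. In RNA from whole liver, fewer cells of a type and less RNA per cell cannot be told apart.

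Complement and coagulation factors made by hepatocytes formed a broad fall, beside 10.4% of all genes that fell and 11.1% that rose. Of 25 measured members 17 fell and 0 rose, with a median of -0.52, and 13 fell without the array labelled JNK1Δhepa replicate 1. C8b, a subunit of the membrane attack complex, had 10.92, 11.06 and 11.13 in the mutant against 12.32, 12.40 and 12.25 in sham liver (2.44-fold lower, adjusted p = 9.04e-08). Mbl2, a mannose-binding lectin, fell 2.34-fold, F11, a clotting factor, 2.05-fold and Proc, protein C, by 0.52 (log2, SE 0.07). Carboxylesterases, which hydrolyse drugs and lipids, also fell: 8 of 14 members fell and 0 rose, with a median of -1.17. Ces3b had 8.15, 9.68 and 9.52 against 12.27, 12.36 and 12.26 (9.07-fold lower). Acute phase genes ran the other way, with 12 of 27 that rose and 3 that fell and a median of 0.19. Lcn2, an iron-sequestering protein, had 12.52, 12.78 and 13.05 against 9.39, 10.09 and 8.13 (12.0-fold higher, adjusted p = 7.3e-06), and the metallothionein Mt1 had 12.21, 11.90 and 12.22 against 9.59, 9.97 and 8.17 (7.30-fold higher). Without the array labelled JNK1Δhepa replicate 1, 1 acute phase gene fell.

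Detoxification and metabolic lists are given beside the shares over all genes, 11.1% that rose and 10.4% that fell. Of 21 NRF2 targets 10 rose and 2 fell, with a median of 0.31. Hmox1, heme oxygenase, had 9.32, 9.09 and 9.01 in the mutant against 7.71, 7.88 and 7.63 in sham liver (2.64-fold higher), and Me1, malic enzyme, had 9.37, 9.49 and 9.34 against 10.84, 10.32 and 10.78 (2.37-fold lower). The risen NRF2 targets numbered 5 without JNK1Δhepa replicate 2 and 6 without sham replicate 1 or 3, and 1 fell without the array labelled JNK1Δhepa replicate 1. Of 20 glutathione and conjugation enzymes 3 rose and 6 fell, with Mgst3, a microsomal glutathione transferase, 3.07-fold higher (7.93, 7.91 and 8.04 against 6.17, 6.10 and 6.75) and the glucuronosyltransferase Ugt2b5 1.87-fold lower. In 23 cytochrome P450 genes 4 rose and 6 fell. Cyp2c39 rose 5.37-fold (8.85, 8.90 and 9.26 against 6.58, 6.81 and 6.35) and Cyp4f14, which degrades leukotrienes, fell 4.87-fold (8.78, 8.99 and 9.31 against 11.46, 11.36 and 11.12). Of 22 fatty acid oxidation genes 11 fell and 4 rose, with a median of -0.23. Ppara, their regulator, had 9.45, 9.43 and 9.47 against 10.30, 10.23 and 10.08 (1.69-fold lower, adjusted p = 0.0001), while Cd36, a fatty acid importer, had 10.89, 10.85 and 10.74 against 9.31, 9.15 and 8.88 (3.27-fold higher). Of 26 lipid synthesis genes 10 fell and 3 rose, with a median of -0.55. Mlxipl (ChREBP), which switches on glycolysis and lipid synthesis, had 9.15, 9.20 and 9.34 against 10.83, 10.89 and 10.82 (3.07-fold lower, adjusted p = 1.82e-08), and Acacb, an acetyl-CoA carboxylase, fell 7.19-fold. Fasn and Scd1 were not called. Without the array labelled JNK1Δhepa replicate 1 the counts were 7 that fell in oxidation, and 6 that fell and 1 that rose in lipid synthesis. Without JNK1Δhepa replicate 2 or sham replicate 3, 2 oxidation genes rose, and without sham replicate 1 or 3, 6 lipid synthesis genes fell. Of 19 glucose genes 4 rose and 6 fell (2 rose without the array labelled JNK1Δhepa replicate 1), with Ppargc1a 3.55-fold higher and Pygl, glycogen phosphorylase, 2.0-fold lower. Of 16 cholesterol synthesis genes 1 rose (Srebf2) and 1 fell (Sc5d). Without the array labelled JNK1Δhepa replicate 1, 2 rose, and 0 fell without that array, JNK1Δhepa replicate 2, sham replicate 1 or sham replicate 3.

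**Figure D3:**
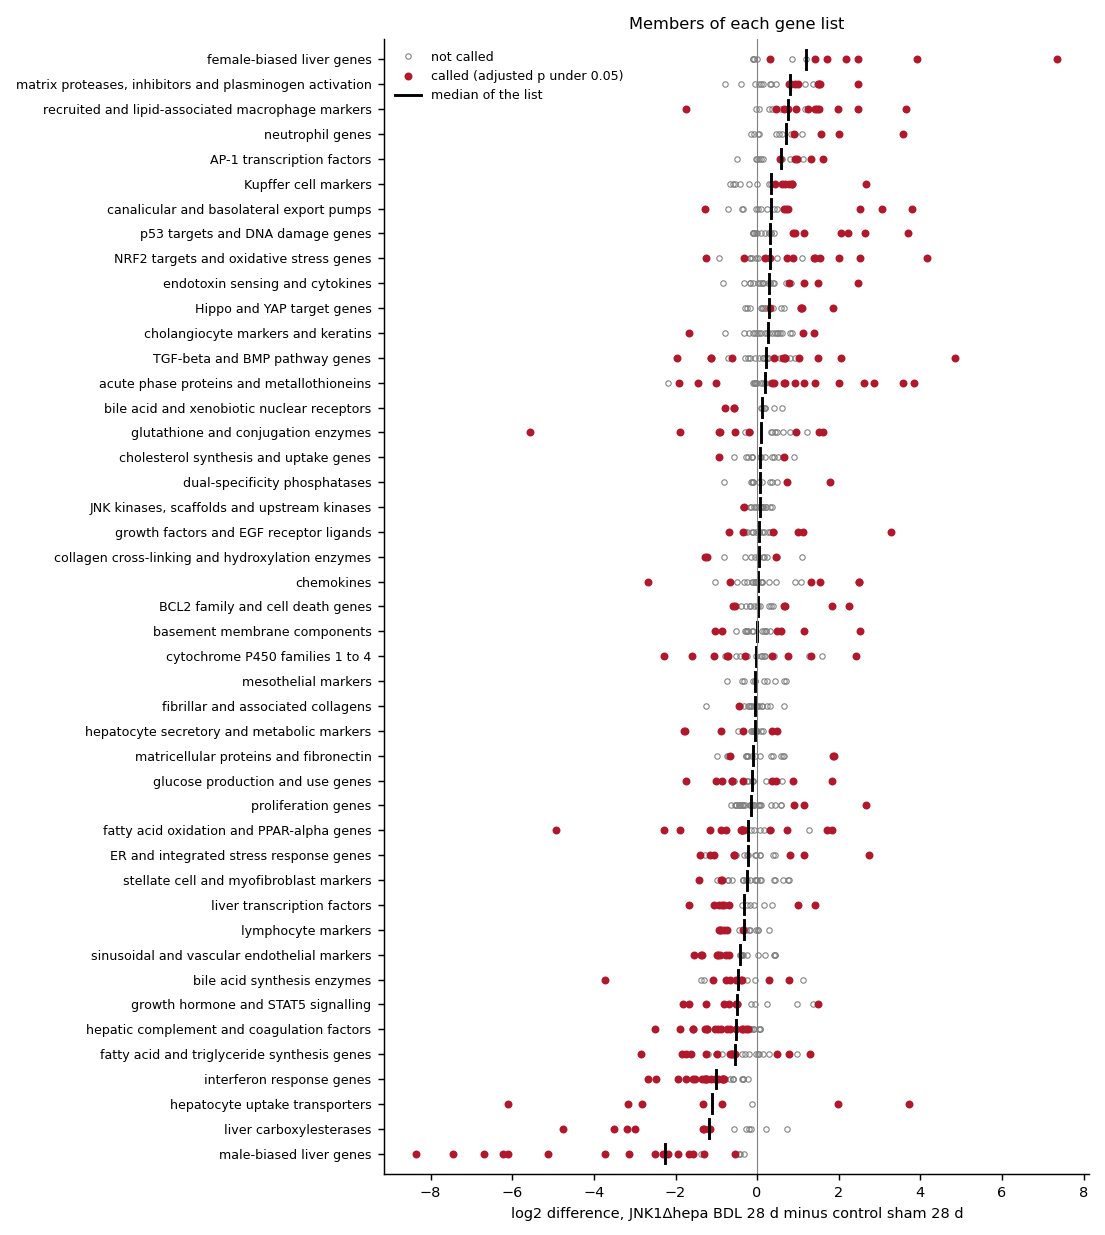
Log2 difference between JNK1Δhepa BDL and control sham at 28 d for each member of 45 gene lists, ordered by list median (black bar); filled points were called at an adjusted p under 0.05. Male-biased genes, at a median of -2.25, lie at the bottom and female-biased genes, at 1.21, at the top, while collagens and cholangiocyte markers centre near 0.

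Few scar and duct genes were called. Of 18 fibrillar and associated collagens 0 rose and 1 (Col5a3) fell, with a median of -0.05. Among all genes 11.1% rose and 10.4% fell. Col1a1, the main chain of scar collagen, read 6.61, 6.95 and 6.72 in the mutant ligated livers, 6.94, 7.56 and 9.09 in control ligated livers, and 5.82, 6.22 and 6.29 in sham liver. Every mutant array of Col1a1 lay above every sham array, but the log2 difference of 0.65 (SE 0.39) was not called (adjusted p = 0.277). Timp1, the inhibitor that protects scar matrix from proteases, read 5.67, 6.28 and 5.98 in the mutant, 6.47, 7.71 and 9.07 in control ligated liver, and 4.92, 4.49 and 4.41 in sham liver. Its difference from sham of 1.37 (SE 0.51) had an adjusted p of 0.063. Col1a1, Timp1 and Lox, which cross-links collagen, were called as higher when the fit used the 6 compared arrays alone or weighted the arrays. The SE of the main fit also takes in arrays outside the comparison. Among them is control ligated replicate 3, at 9.09 for Col1a1 and 9.07 for Timp1. Acta2, the actin of myofibroblasts, read 7.04, 7.21 and 6.91 in the mutant against 7.21, 6.36 and 8.13 in sham liver. Of 24 stellate and myofibroblast markers 0 rose and 3 fell (Colec11, Ngfr and Lrat), a share near that of all genes, with a median of -0.26. The 3 falls numbered 0 without the array labelled JNK1Δhepa replicate 1 or sham replicate 1, and 1 without sham replicate 2 or 3. The fall of Col5a3 was lost without JNK1Δhepa replicate 3, sham replicate 1 or sham replicate 3, and without JNK1Δhepa replicate 2 there were 2 collagens that fell. Of 22 cholangiocyte markers 2 rose and 1 fell, with a median of 0.26, and the share that rose was near that of all genes. Cldn4, a tight junction protein of duct epithelium, had 6.08, 5.52 and 5.73 against 4.38, 4.33 and 4.42 in sham liver (2.64-fold higher, adjusted p = 0.00132). Of 11 mesothelial markers 0 were called by limma. Krt19, the keratin of ducts, read 6.03, 5.88 and 5.61 against 5.16, 5.0 and 6.64 and was not called (adjusted p = 0.841).

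Matrix genes outside the fibrillar collagens did include clear rises, beside 11.1% of all genes that rose and 10.4% that fell. Nid1, a basement membrane linker, had 10.42, 10.17 and 10.39 in the mutant against 8.00, 7.79 and 7.59 in sham liver (5.79-fold higher, adjusted p = 5.56e-07), and Lama5 and Lamc1, laminin chains, rose by 1.14 (SE 0.20) and 0.59 (SE 0.14). In all, 4 of 18 basement membrane genes rose and 2 fell (Lama1 and Lama4), with a median of 0.00. The falls numbered 0 or 1 without any 1 of the 6 arrays. Ccn2 (CTGF), a matricellular target of TGF-beta and YAP, had 9.43, 9.30 and 8.90 against 7.25, 7.26 and 7.55 (3.63-fold higher, adjusted p = 0.000269). Of 18 matricellular genes 2 rose, a share near that of all genes, and 1 fell. Thbs1, thrombospondin-1, was the other that rose, and its call was lost without sham replicate 2. The fall numbered 2 without sham replicate 1 and 0 without sham replicate 3. Of 15 collagen cross-linking and hydroxylation enzymes 1 rose and 2 fell. P4ha1, a collagen prolyl hydroxylase, fell 2.34-fold. The rise numbered 0 without JNK1Δhepa replicate 1 or 2 or sham replicate 1 or 3 and 2 without sham replicate 2, and 1 enzyme fell without any single array other than sham replicate 1. Of 20 matrix proteases and inhibitors 8 rose and 0 fell, with a median of 0.81, among them Mmp9 (2.93-fold), Plaur, the urokinase receptor (2.86-fold), and Ctss, a macrophage cathepsin (2.01-fold). They numbered 5 without the array labelled JNK1Δhepa replicate 1 or sham replicate 1. Among 27 TGF-beta and BMP genes 8 rose and 4 fell, with a median of 0.21. Id1, a BMP target, had 7.56, 8.12 and 7.25 against 5.86, 5.27 and 5.65 (4.15-fold higher) and Smad7, an inhibitor of the pathway, rose 2.05-fold. Tgfb1 had a difference of 0.05 (adjusted p = 0.937). Of 16 Hippo and YAP genes 5 rose and 0 fell. They included Wwtr1 (TAZ), with 8.24, 8.19 and 8.29 against 7.21, 7.14 and 7.15 (2.11-fold higher, adjusted p = 7.07e-07). They numbered 3 without JNK1Δhepa replicate 1 or 2 or sham replicate 3.

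**Figure D4:**
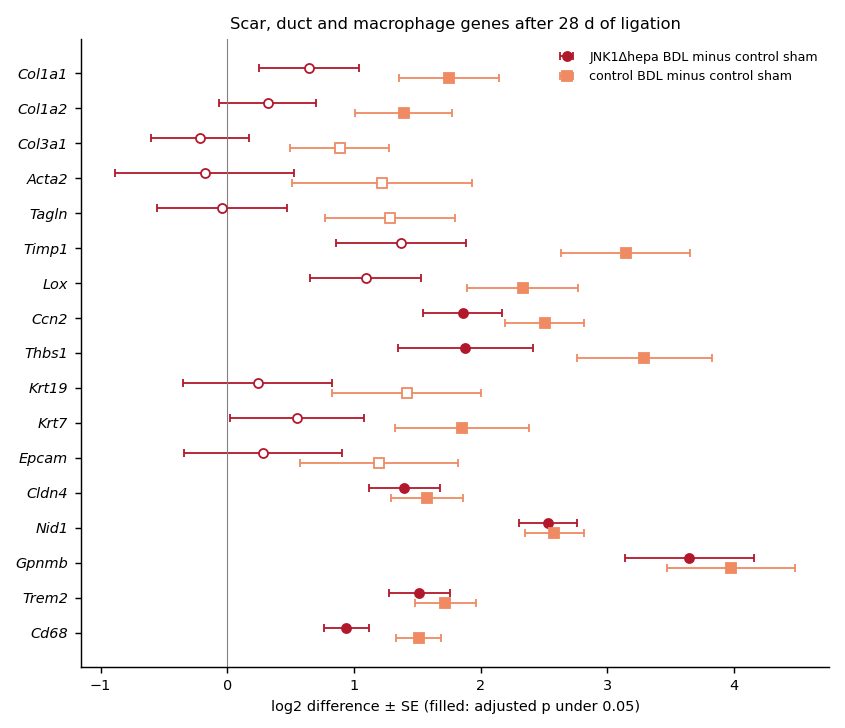
Log2 difference from control sham at 28 d, with its SE, for JNK1Δhepa BDL (circles, above) and control BDL (squares, below) in 17 scar, duct and macrophage genes; both groups are set against the same 3 sham arrays, and filled symbols passed an adjusted p under 0.05. Col1a1 and Timp1 lie at 0.65 and 1.37 in the mutant and at 1.75 and 3.15 in control liver, whereas Nid1 and Gpnmb lie close together in both. Cd68, at 1.51 in control liver, lies lower in the mutant.

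Markers of inflammatory cells moved in some lists and not in others, beside 11.1% of all genes that rose and 10.4% that fell. Of 19 markers of recruited and lipid-associated macrophages 11 rose and 1 fell, with a median of 0.75. Gpnmb, a glycoprotein of lipid-laden macrophages, had 7.62, 6.89 and 7.61 in the mutant against 3.75, 3.52 and 3.92 in sham liver (12.5-fold higher, adjusted p = 4.16e-05). Trem2, a lipid receptor, rose 2.86-fold, Lgals3 (galectin-3) 2.69-fold, Cd9 2.35-fold and Cd68 1.92-fold. Ccr2, the receptor of recruited monocytes, read 4.61, 4.68 and 4.95 against 4.84, 4.88 and 4.64 and was not called (adjusted p = 0.971). The fall (Fabp5) was lost without JNK1Δhepa replicate 1 or 2 or sham replicate 1 or 3. Of 15 Kupffer cell markers 7 rose and 0 fell, with a median of 0.33. Marco, a scavenger receptor, rose 6.39-fold (8.01, 8.19 and 7.90 against 5.43, 5.52 and 5.11), whereas Clec4f and Timd4, which define resident Kupffer cells, had differences of -0.67 and -0.21 and were not called, Clec4f except in a fit to the 6 compared arrays. Of 14 neutrophil genes 4 rose and 0 fell (2 without sham replicate 3), with Retnlg 4.0-fold higher. Mpo and Elane were not called. Of 17 lymphocyte markers 0 rose and 6 fell (3 without sham replicate 1), including the B cell genes Ms4a1 (3.52, 3.18 and 3.37 against 4.26, 4.02 and 4.52) and Cd79a. Of 23 chemokines 4 rose and 2 fell, shares not far from those of all genes. Among the rises were Ccl6 (5.65-fold higher) and Cxcl14 (5.64-fold higher). Chemokines that rose numbered 2 without JNK1Δhepa replicate 2 or 3 or sham replicate 1. Falls numbered 0 without the array labelled JNK1Δhepa replicate 1 and 1 without sham replicate 1. Of 22 endotoxin sensing and cytokine genes 4 rose and 0 fell, with Cd14, the endotoxin co-receptor, at 7.73, 7.64 and 7.88 against 5.24, 5.17 and 5.42 (5.54-fold higher, adjusted p = 0.00478). Tnf and Il6 were not called. Of 21 endothelial markers 8 fell and 0 rose, with a median of -0.42. Kdr, the VEGF receptor, had 7.22, 7.36 and 7.28 against 8.73, 8.67 and 8.54 (2.57-fold lower). The number that fell was 5 without JNK1Δhepa replicate 2 or sham replicate 1. Whether shifts in cell composition account for part of these levels was not tested.

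Interferon response genes, which take part in antiviral defence, were lower in the mutant ligated livers, beside 10.4% of all genes that fell. Of 26 measured members 18 fell and 0 rose, with a median of -1.0, and 15 fell without the array labelled JNK1Δhepa replicate 1. Ifit1, which binds foreign RNA, had 3.61, 4.79 and 5.07 in the mutant, 3.94, 5.78 and 6.27 in control ligated liver, and 7.04, 7.42 and 7.01 in sham liver (mutant 6.34-fold lower than sham, adjusted p = 0.000222). Rsad2 (viperin) had 5.28, 5.89 and 5.84 against 7.44, 7.82 and 7.56 in sham liver (3.83-fold lower). Usp18, which limits interferon signalling, fell 2.97-fold. Psmb8, shown above, had 5.33, 6.03 and 6.06 against 7.18, 7.18 and 7.08 (2.53-fold lower). Irf7, which drives interferon production, was not called (adjusted p = 0.433). The list's median shift was -1.30, -0.88 and -0.85 on the mutant arrays, and -1.23, -0.31 and -0.31 on the control ligated arrays, so that replicate 1 was the lowest in both ligated groups.

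The kinase module around JNK changed little in transcript level, beside 11.1% of all genes that rose and 10.4% that fell. Of 18 JNK kinases, scaffolds and upstream kinases 0 rose and 1 fell, Map3k2 (-0.32, SE 0.08, adjusted p = 0.00619), with a median of 0.08. Without sham replicate 2, 2 of them fell. Of 15 AP-1 transcription factors 5 rose and 0 fell, with a median of 0.59. Fosl2 had 8.67, 7.92 and 7.63 in the mutant against 6.34, 6.47 and 6.55 in sham liver (3.08-fold higher, adjusted p = 0.00023), and Jund had 8.95, 8.88 and 8.76 against 7.59, 8.06 and 8.18 (1.89-fold higher). Jun, the substrate that names the pathway, read 9.38, 9.60 and 9.35 against 7.91, 9.35 and 9.26, where sham replicate 1 lay far below the others, and was not called (adjusted p = 0.146). Of 12 dual-specificity phosphatases, which switch off MAP kinases, 2 rose, among them Dusp8 (3.44-fold), and 1 rose without JNK1Δhepa replicate 2.

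Over all genes 11.1% rose and 10.4% fell. Of 20 p53 target and DNA damage genes 7 rose and 0 fell, with a median of 0.32 (4 rose without the array labelled JNK1Δhepa replicate 1). Cdkn1a (p21), which arrests the cell cycle, had 11.01, 10.31 and 10.55 in the mutant against 7.57, 9.15 and 8.48 in sham liver (4.66-fold higher, adjusted p = 0.000874), and Ddit4, an inhibitor of mTOR, had 10.73, 9.59 and 9.53 against 7.30, 5.39 and 6.07 (13-fold higher). Of 28 proliferation genes 3 rose and 0 fell, with a median of -0.14, a share near that of all genes. They were Mybl1 (6.33-fold), Ccne1 (2.22-fold) and Cdt1 (1.86-fold), while Mki67 read 4.63, 4.73 and 4.94 against 5.29, 5.49 and 5.07 and was not called. Among 18 cell death genes 4 rose and 2 fell (1 fell without JNK1Δhepa replicate 1 or any sham replicate). Bcl2l11 (BIM), a pro-apoptotic protein, had 8.92, 7.85 and 8.02 against 6.19, 6.13 and 5.70 (4.76-fold higher), and Cflar, an inhibitor of caspase-8, fell 1.51-fold. Of 20 endoplasmic reticulum and integrated stress genes 3 rose and 5 fell. Asns, asparagine synthetase, had 10.41, 9.62 and 9.55 against 6.34, 8.04 and 6.97 (6.69-fold higher), and Ern1 (IRE1) had 8.35, 8.5 and 8.66 against 9.65, 9.65 and 9.64 (2.21-fold lower, adjusted p = 5.75e-05). The number that rose was 1 without the array labelled JNK1Δhepa replicate 1, and the number that fell was 8 without sham replicate 1 and 2 without sham replicate 2. Of 19 growth factor genes 4 rose and 2 fell, with Btc, betacellulin, at 9.52, 8.47 and 8.04 against 5.43, 5.39 and 5.40 (9.64-fold higher, adjusted p = 1.96e-05). Growth factors that rose numbered 2 without JNK1Δhepa replicate 2 or 3 or sham replicate 1 or 3, and 1 fell without any 1 of the 6 arrays.

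The array labelled JNK1Δhepa replicate 1 was also left out for further lists. Over all 18820 genes 1413 rose and 1332 fell without it, against 2080 and 1953 with all arrays. Leaving out any 1 of the 6 arrays lowered the genes called from 4033 to between 2745 and 3345. Lower list counts without an array thus come with fewer calls over all genes. Without it 2 uptake transporters rose and 5 fell, 5 export pumps rose and 1 fell, 7 female-biased genes rose, 4 P450 genes rose and 6 fell, 2 conjugation enzymes rose and 4 fell, and 7 carboxylesterases fell. Among immune and vascular lists 10 recruited macrophage, 6 Kupffer, 3 neutrophil and 4 endotoxin and cytokine genes rose, and 4 lymphocyte and 8 endothelial markers fell. Among signalling and matrix lists 6 TGF-beta and BMP genes rose and 3 fell, 4 AP-1 factors, 4 basement membrane genes and 2 cholangiocyte markers rose, and 3 proliferation genes rose. Of the 204 called genes the naming rule picks, 32 lost their call without it. Of these, Colec11, Ngfr, Lrat and Sc5d are described above. Fabp5, Lama1 and Lama4, described above but named outside that rule, also lost their call without this array.

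Ligation with Jnk1 present was then set beside the mutant, each against the same 3 sham arrays. In control ligated liver 2199 genes rose (11.7%) and 2161 fell (11.5%). Genes with the largest falls in the mutant were low there as well. Hsd3b5 read 4.02, 3.17 and 3.39, Slco1a1 5.39, 4.95 and 4.18, and Mup21 2.82, 3.20 and 3.11. Sult1e1 read 11.37, 10.76 and 8.62 and Slc51b 8.72, 8.63 and 8.28. The scar and duct lists had medians of -0.05 in the mutant and 0.60 in control ligated liver for fibrillar collagens, -0.26 and 0.52 for stellate markers, and 0.26 and 1.08 for cholangiocyte markers. The control values of these scar and duct lists rested largely on replicate 3. On single control ligated arrays the median shift of the collagen list was -0.09, 0.24 and 1.66, that of the stellate list -0.44, 0.06 and 1.42, and that of the cholangiocyte list 0.15, 0.54 and 2.37. The mutant arrays read -0.28, 0.08 and -0.08 for collagens, -0.31, -0.24 and -0.18 for stellate markers, and 0.49, 0.23 and 0.00 for cholangiocyte markers. Without control ligated replicate 3 the control medians were 0.12 for collagens, -0.13 for stellate markers and 0.42 for cholangiocyte markers. Without control ligated replicate 1 the stellate median was 0.99. Acta2 in control liver differed from sham by 0.01 without replicate 3, by 2.12 (adjusted p = 0.0274) without replicate 1, and by 1.22 (adjusted p = 0.236) with all arrays. Timp1 and Col1a1 still passed the test in control liver without replicate 3, at 2.48 (SE 0.47) and 1.14 (SE 0.32). Some other lists did not rest on replicate 3. Recruited macrophage markers shifted by 1.04, 1.66 and 1.94 on control ligated arrays and by 0.65, 0.88 and 0.77 on mutant arrays. Conjugation enzymes lay the other way, at -0.51, -0.27 and -0.35 on control ligated and 0.03, 0.08 and 0.01 on mutant arrays. In both lists no member was called in mutant against control ligated liver.

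**Figure D5:**
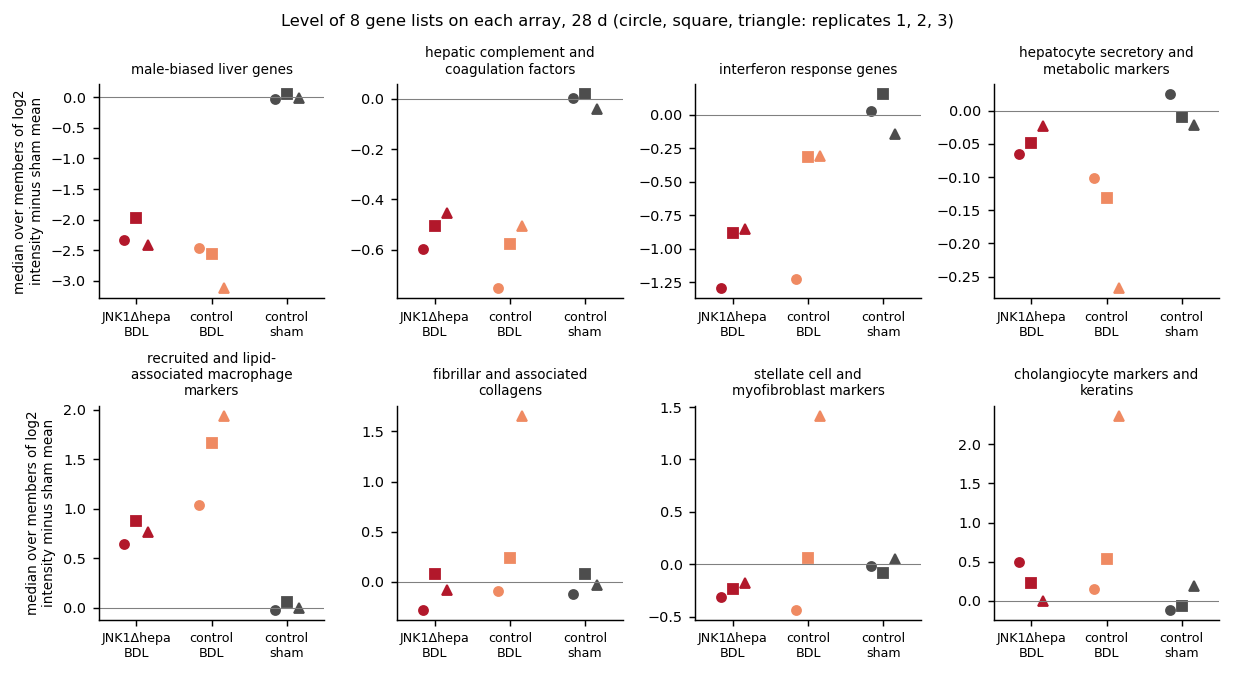
Median over the members of a gene list of the log2 intensity minus the sham mean, on each array at 28 d, with JNK1Δhepa BDL on the left, control BDL in the middle and control sham on the right; symbols mark replicates 1, 2 and 3. Control BDL replicate 3, at 1.66, 1.42 and 2.37 for collagens, stellate and cholangiocyte markers, stands far above the other ligated arrays, while male-biased genes lie below sham on all 6 ligated arrays.

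The direct test of the mutant against control liver, both ligated for 28 d, called 43 genes, 0.228% of those tested, 23 higher and 20 lower in the mutant. All named here had an adjusted p of 0.0496. Miox, which oxidises myo-inositol, had 7.27, 7.08 and 6.88 in the mutant, 5.82, 5.68 and 4.60 in control ligated liver, and 4.27, 4.62 and 4.16 in sham liver (mutant minus control ligated 1.71, SE 0.35). Ces1b, a carboxylesterase, had 10.83, 10.60 and 10.39 in the mutant, 9.64, 9.63 and 9.26 in control ligated liver, and 10.65, 10.32 and 10.20 in sham liver, so that the mutant arrays overlapped with sham. Sec22c, a vesicle trafficking protein (1.03, SE 0.19), Mgll, monoacylglycerol lipase (0.96, SE 0.20), Rsph4a, a ciliary spoke protein (0.87, SE 0.18), and Slc25a21, a mitochondrial oxodicarboxylate carrier (0.76, SE 0.15), were also higher. Oasl2, an interferon-induced gene, had 5.82, 6.32 and 6.14 in the mutant, 6.92, 7.43 and 7.97 in control ligated liver, and 7.44, 7.58 and 7.07 in sham liver (-1.35, SE 0.22). Gbp3, an interferon-induced GTPase, had 4.60, 4.77 and 4.99 in the mutant, 5.36, 6.15 and 6.01 in control ligated liver, and 6.40, 6.34 and 6.17 in sham liver (-1.06, SE 0.21). Both interferon genes were lower on every mutant array than on any array of either control group. Apaf1, the scaffold of the apoptosome, had 6.34, 6.22 and 6.07 in the mutant, 6.72, 7.04 and 7.30 in control ligated liver, and 5.82, 5.93 and 5.79 in sham liver (-0.81, SE 0.15). Setd7, a lysine methyltransferase (-0.83, SE 0.15), the unconventional myosin Myo9a (-0.83, SE 0.17), Pgm2l1 (-0.80, SE 0.16) and Map3k12, a kinase upstream of JNK (-0.54, SE 0.11), were lower as well. The second Map3k12 probe set, of similar intensity, read 0.96 above sham where the one used read 0.07 below it, and with both averaged Map3k12 was not called (-0.15, adjusted p = 0.626). No collagen, stellate or cholangiocyte list member was called in this test, and Col1a1 and Timp1 differed by -1.10 (adjusted p = 0.199) and -1.77 (adjusted p = 0.123). The count rested on single arrays. It was 0 without the array labelled JNK1Δhepa replicate 1, without JNK1Δhepa replicate 2 or without control replicate 3, 6 without JNK1Δhepa replicate 3, 129 without control replicate 2 and 1985 without control replicate 1. With a term per replicate number, shared by all 8 groups, 11 genes were called. No fit paired the 2 ligated groups alone. Of the 13 named here, Miox, Sec22c, Rsph4a, Oasl2 and Setd7 kept their call in that fit and the other 8 had adjusted p-values of 0.051 to 0.0532.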

How the data were processed

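RNA from whole liver was hybridised to whole-transcript arrays, 24 in all, with 3 animals in each of 8 groups. The deposited values are log2 intensities that the authors summarised with RMA, per the submitters' processing notes. Its version is not given in the sources used here. Of 35556 probe sets, 21218 had 1 gene symbol, 1881 had several and 12457 had none, and the probe set with the highest mean stood for each of 18820 genes. Groups were taken from the sample titles. A linear model over all 24 arrays was fitted with limma 3.58.1 in R 4.3.3, and p-values were adjusted by the Benjamini-Hochberg method over all genes. The median SE of a log2 difference was 0.129, set by the number of arrays. The script was tested on simulated data.

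Genes named are up to 12 per direction with the largest difference among called genes with no overlap between arrays of both groups (up to 6 between the ligated groups), up to 4 members per list with the smallest p, and anchor genes of each list. Akr1d1, Fabp5, Lama1 and Lama4 were named after their values were seen. The members and the 45 lists were chosen with earlier results of these data known. Of 898 listed genes 814 were measured. Samples of the same replicate number in the 2 ligated groups deviated together (r = 0.5, 0.24 and 0.16 for replicates 1, 2 and 3), which met the rule for pairing, every r over 0.1. The highest r with a differently numbered sample was -0.27, 0.22 and 0.26. The replicate block was a term per replicate number shared by all 8 groups, so no fit paired the ligated groups alone. Alternatives were quantile normalization, centring, a fit to the compared arrays, an intensity trend, array weights, leaving out dim genes, averaging probe sets, a replicate block and leaving out each array.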

Additional observations from a re-analysis of the deposited data

Results flagged for a closer look

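For 13 named genes of the 43 called, the direct test between the ligated groups passed the threshold. In the fit without the replicate-number term, the difference from sham was thus not the same in JNK1Δhepa liver as in control liver. The log2 difference, JNK1Δhepa BDL minus control BDL, was 1.71 for Miox, 1.09 for Ces1b, 1.03 for Sec22c, 0.96 for Mgll, 0.87 for Rsph4a and 0.76 for Slc25a21. It was -1.35 for Oasl2, -1.06 for Gbp3, -0.83 for Setd7, -0.83 for Myo9a, -0.81 for Apaf1, -0.80 for Pgm2l1 and -0.54 for Map3k12. Each had a limma adjusted p of 0.0496. In all 43 called genes the 3 JNK1Δhepa arrays lay on the same side of all 3 control ligated arrays. This was also a condition for naming genes by the size of their difference, so it adds no support. With the replicate-number term, shared by all arrays, Miox, Sec22c, Rsph4a, Oasl2 and Setd7 kept their call and the other 8 did not (limma adjusted p = 0.051 to 0.0532). With probe sets of a gene averaged none was called. Among these genes only Map3k12 and Myo9a have several probe sets, so the values of the others were unchanged in that setting. The 2 probe sets of Map3k12 disagreed. These calls were lost together without the array labelled JNK1Δhepa replicate 1, without JNK1Δhepa replicate 2 or without control ligated replicate 3. Whether genotype or a single array sets these differences was not tested.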

How the results depend on the processing

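Of 204 called genes among those named, 158 kept their call and direction under every alternative and 0 reversed. For 32 of 45 lists the median stayed within 1 SD between replicates of the list difference under every alternative. This tolerance is wide for cholesterol genes (0.520), whose median of 0.0816 was -0.219 without JNK1Δhepa replicate 3 and 0.337 without the array labelled JNK1Δhepa replicate 1. The number of genes called between the ligated groups was 43, and became 255 with centred arrays, 3 in a fit to the compared arrays, 2357 with array weights, and 0 to 1985 when each array was left out. It was 0 with an intensity trend (2777 at an unadjusted p under 0.05 in limma) and 0 with averaged probe sets (2794 unadjusted), and without 1 array the counts of 0 stood beside 1625, 2260 and 2207 unadjusted. Centring moved the median of all genes in that comparison from 0.01 to 0.148. Control ligated against sham liver gave 6907 genes with centred arrays and 1765 in a fit to the compared arrays. Treating equal replicate numbers as a replicate block gave 11 genes between the ligated groups and 4122 for JNK1Δhepa BDL against sham, where same-numbered samples did not deviate together (r = -0.12, 0 and -0.1). Under centring the list median was -0.0048 for growth factors, a reversal, and -0.294 for fatty acid oxidation, -0.112 for hepatocyte markers and 0.0151 for JNK kinases. With array weights it was -0.294 for fatty acid oxidation, 0.287 for TGF-beta genes, -0.496 for endothelial markers and 0.238 for mesothelial markers. Without dim genes it was 1.95 for female-biased genes and -0.144 for cytochrome P450 genes. Leaving out each array gave medians of 0.718 to 1.45 for female-biased genes, -0.580 to -0.358 for growth hormone signalling, -0.0274 to 0.124 for glutathione enzymes, -0.304 to -0.200 for fatty acid oxidation, -0.244 to -0.0966 for glucose genes, -0.348 to -0.117 for stellate markers, 0.156 to 0.305 for TGF-beta genes, -0.544 to -0.403 for endothelial markers and 0.0637 to 0.139 for growth factors. The cause of these shifts was not tested. With 3 arrays a group, dim genes near the background and small differences are the least certain.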
